A study of Arabidopsis thaliana with 6 samples.

Results

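The genes described here carry heat shock names: every entry whose name starts with HSP, HSF or HSC, with or without an AT prefix, plus AT1G53540, the gene of the small heat shock protein HSP17.6C. The rule took 41 of 27052 gene entries. No measured value is part of it, but it was chosen with earlier results of these data known, including the addition of AT1G53540. By name they fell into 8 small heat shock proteins (HSPs, with a size in the name under 30 kDa), 12 large HSPs (60 kDa or more), 20 heat shock factors (HSFs) and 1 other gene, HSPRO2, an ortholog of a sugar beet gene whose name only resembles the family's. All 41 were matched to a locus code.

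Heat shock proteins are chaperones. Small HSPs hold unfolding proteins in a state from which they can be rescued, whereas HSP70, HSP90, chaperonins and HSP100 proteins fold, mature or disaggregate them with the use of ATP. HSFs are transcription factors that bind heat shock elements in the promoters of these genes; in plants the class A factors mainly activate, and several class B factors repress. Many of these genes also respond to oxidative and metal stress, which is where copper enters.

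RNA-seq was run on whole Arabidopsis thaliana seedlings, 7 days old and grown under continuous white light at 22 °C after the seeds had been kept at 4 °C for 4 days, in 4 groups of 1 library each: spl7 mutant with 5 µM CuSO4 added to MS (Murashige and Skoog) medium, spl7 on standard MS, Col-0 wild type (WT) with the same copper, and WT on standard MS. SPL7 is a transcription factor known as a regulator of copper homeostasis; the labels do not give the spl7 allele. ChIP-seq used an antibody to FLAG and seedlings with FLAG-tagged SPL7 behind the strong, broadly active 35S promoter, grown on standard MS, set against spl7 seedlings as its negative control; the authors' list of 1535 peaks was used. With 1 library per group no difference has a replicate check, no test was run and no p-value is given.

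Levels are in FPKM, a count of fragments per kilobase of transcript after scaling by library size. The libraries summed to between 4383940 and 4694640 FPKM, their medians lay between 29.3 and 30.3 FPKM, and the number of reads behind a value is unknown. Between 26.2% and 26.7% of all entries were listed at 0, and a value of 0 may be a failed estimate, so such genes are described as listed at 0. SPL7 itself stood at 20.7 FPKM in spl7 with copper and 20.2 FPKM in spl7 on MS, against 105 FPKM in WT with copper and 107 FPKM in WT on MS, which matched the labels. Root and root hair markers were above 0 in every library for all 9 genes of a list, with summed levels from 361 to 463 FPKM. In whole seedlings, fewer cells of a type and less RNA per cell cannot be told apart.

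**Figure D1:**
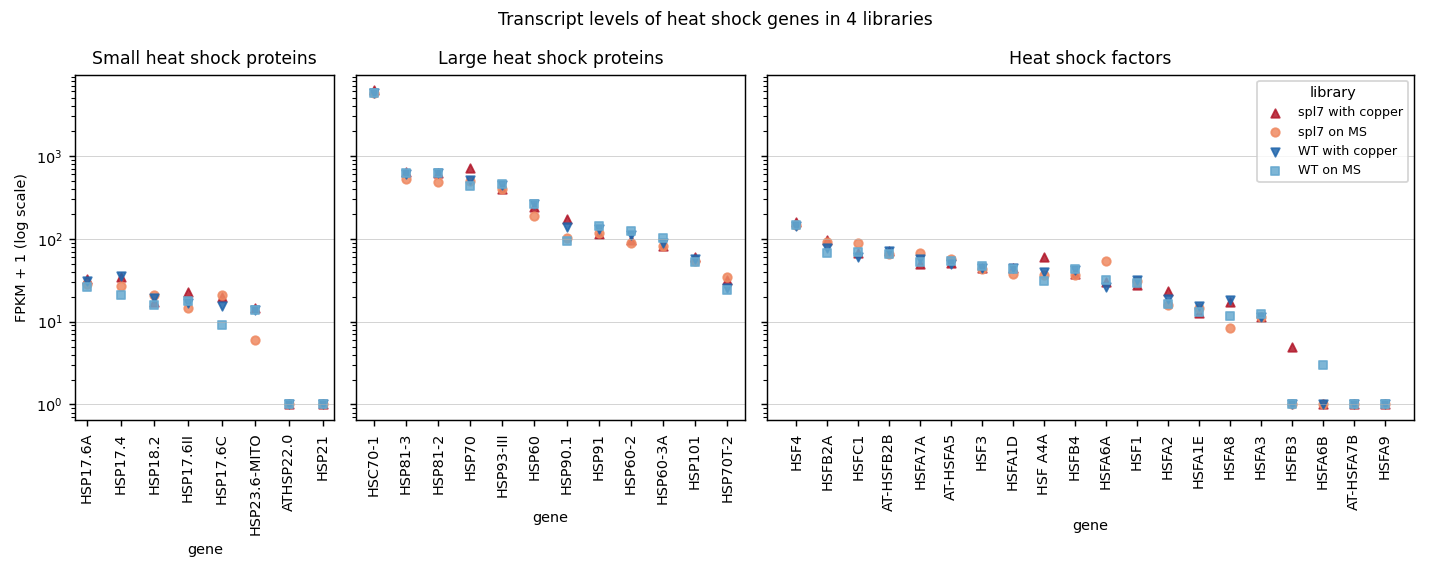
FPKM + 1 on a log axis for the 40 small HSPs, large HSPs and HSFs, sorted by mean level within each class, with 1 symbol per library. Large HSPs sit highest as a class, HSC70-1 far above the rest, and 6 genes at the right ends of the small HSP and HSF panels have at least 1 library at 0.

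Large HSPs had the highest levels as a class. Their median was 206 FPKM in spl7 with copper, 151 FPKM in spl7 on MS, 200 FPKM in WT with copper and 200 FPKM in WT on MS. The small HSP median lay between 14.0 and 17.7 FPKM in these libraries, and the HSF median between 30.4 and 35.4 FPKM. Mean levels over the 4 libraries ran from 28.0 to 5848 FPKM in the large HSPs. They reached at most 28.6 FPKM in the small HSPs and at most 148 FPKM in the HSFs. Summed over the 8 small HSPs, the level was 135 FPKM in spl7 with copper, 112 FPKM in spl7 on MS, 126 FPKM in WT with copper and 98.2 FPKM in WT on MS. Of the 41 genes, 35 were above 0 in all 4 libraries, the same number reached 5 FPKM in at least 1, 4 were listed at 0 in all, and 2 were listed at 0 in some.

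To be counted as higher or lower, a gene had to reach 5 FPKM in a library of the comparison and a 2-fold ratio of FPKM + 1. All log2 ratios are on the scale of FPKM + 1, which understates the change of low genes. Counts at 1.5-fold are given beside them.

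**Figure D2:**
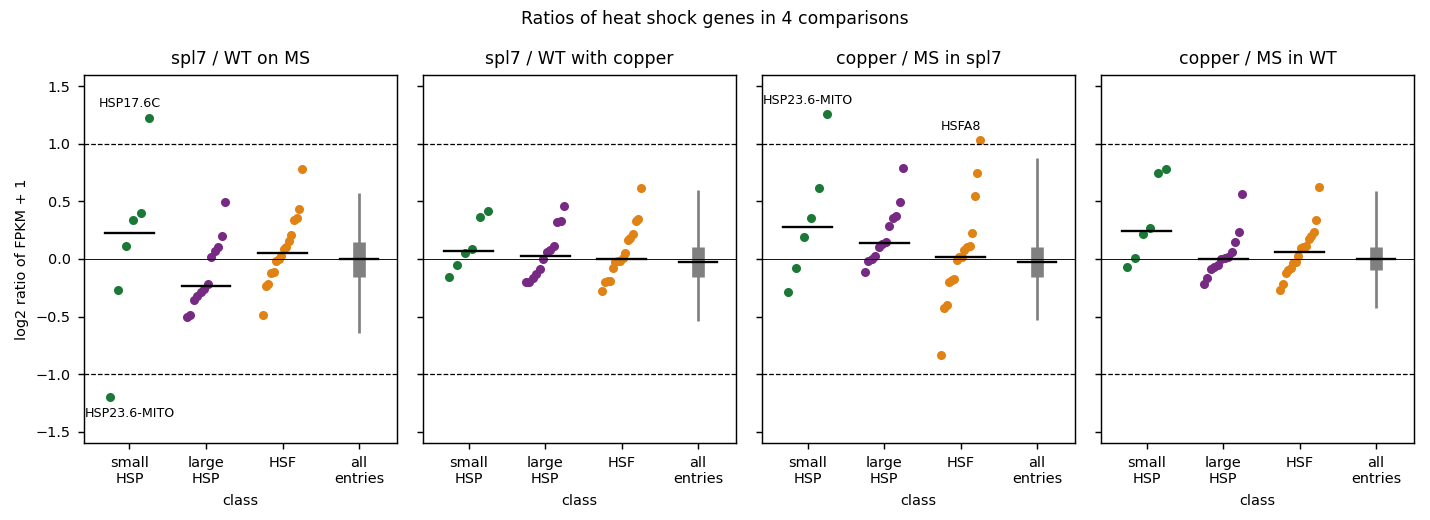
Log2 ratios of FPKM + 1 for the tested genes of each class in 4 comparisons, with 1 point per gene and a black bar at the class median. The grey box spans the quartiles of all tested entries and the grey line leaves out their outermost 5%, dashed lines mark 2-fold, and only HSP17.6C, HSP23.6-MITO and HSFA8 pass them.

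In spl7 on MS, against WT on MS, the genes counted were 2 small HSPs: HSP17.6C was higher and HSP23.6-MITO was lower. The other 33 of 35 tested genes, which include all large HSPs and HSFs tested, were not counted. Both counts together make 2 of 35, beside 1.59% of the 18658 entries tested in this comparison. HSP17.6C entered the set by its locus code, not by the name pattern. At 1.5-fold HSFA6A joined them as higher, which made 3 of 35 beside 5.52% of all entries.

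HSP17.6C (AT1G53540; TAIR10 chromosome 1, 19980462 to 19981109) encodes a class I small HSP of the cytosol. It stood at 18.9 FPKM in spl7 with copper, 20.0 FPKM in spl7 on MS, 14.5 FPKM in WT with copper and 8.01 FPKM in WT on MS. WT on MS was the low library and the other 3 lay closer together. The log2 ratio of spl7 to WT was 1.22 on MS and 0.37 with copper, and that of copper to MS was -0.08 in spl7 and 0.78 in WT.

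HSP23.6-MITO (AT4G25200; chromosome 4, 12917017 to 12918053) encodes a small HSP of the mitochondrion. It stood at 13.4 FPKM in spl7 with copper, 5.05 FPKM in spl7 on MS, 12.9 FPKM in WT with copper and 12.9 FPKM in WT on MS. Here spl7 on MS was the low library and the other 3 were nearly equal. The log2 ratio of spl7 to WT was -1.20 on MS and 0.05 with copper, and that of copper to MS was 1.25 in spl7 and 0.01 in WT.

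The other small HSPs above 0 were not counted in any comparison. HSP17.6II and HSP17.6A, the class II proteins of the cytosol, lie next to each other on chromosome 5 and are close in sequence, so uniquely mapped reads can undercount both. HSP17.6II stood at 21.5 FPKM in spl7 with copper, 13.7 FPKM in spl7 on MS, 15.8 FPKM in WT with copper and 16.7 FPKM in WT on MS, so that copper-fed spl7 was the high library. HSP17.6A stood at 31.7, 27.6, 29.8 and 25.4 FPKM in the same order of libraries, with both copper libraries above both MS libraries. The class I gene HSP17.4 stood at 33.3 FPKM in spl7 with copper, 25.7 FPKM in spl7 on MS, 34.5 FPKM in WT with copper and 20.2 FPKM in WT on MS, again higher with copper in either genotype; its locus in the files is shared with AT3G46220. HSP18.2, a class I gene often used as a heat reporter, lay between 20.2 FPKM in spl7 on MS, its highest library, and 15.1 FPKM in WT on MS, its lowest. HSP21 of the chloroplast and ATHSP22.0 of the endoplasmic reticulum were listed at 0 in all 4 libraries.

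The median log2 ratio of the 6 small HSPs tested was 0.22 for spl7 against WT on MS and 0.07 with copper, beside -0.00 and -0.03 over all entries tested. For copper against MS it was 0.28 in spl7 and 0.24 in WT, beside -0.03 and -0.00 over all entries. With so few genes these medians moved with the genes included: without HSP17.4, which shares its locus, that for spl7 against WT on MS was 0.11, and at a minimum of 20 FPKM it was 0.37. With copper 4 of 6 had a ratio above 0 in spl7, and 5 of 6 in WT, where 43.2% and 49.4% of all entries did. Several small HSPs are known to accumulate in maturing seeds, and seed storage and embryo markers also moved between these libraries. The summed level of the 11 seed genes was 570 FPKM in spl7 with copper, 214 FPKM in spl7 on MS, 731 FPKM in WT with copper and 337 FPKM in WT on MS, with 4, 3, 0 and 1 of them listed at 0 (SESA2, SESA4, SESA5 and CRU2 in copper-fed spl7). CRA1 at 331 FPKM and CRU3 at 133 FPKM were the largest in copper-fed spl7. With copper, 4 of 7 tested seed genes were counted as higher in spl7, beside 2.51% of all entries counted. In WT 7 of 11 were, beside 1.33%. In spl7 SESA1 did not rise, at 14.7 FPKM with copper and 14.8 FPKM on MS, nor did SESA3, at 6.21 and 6.49 FPKM. The part of seed genes in the small HSP values was not tested. HSFA9, the factor that drives small HSP genes in seeds, was listed at 0 in all 4 libraries.

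**Figure D3:**
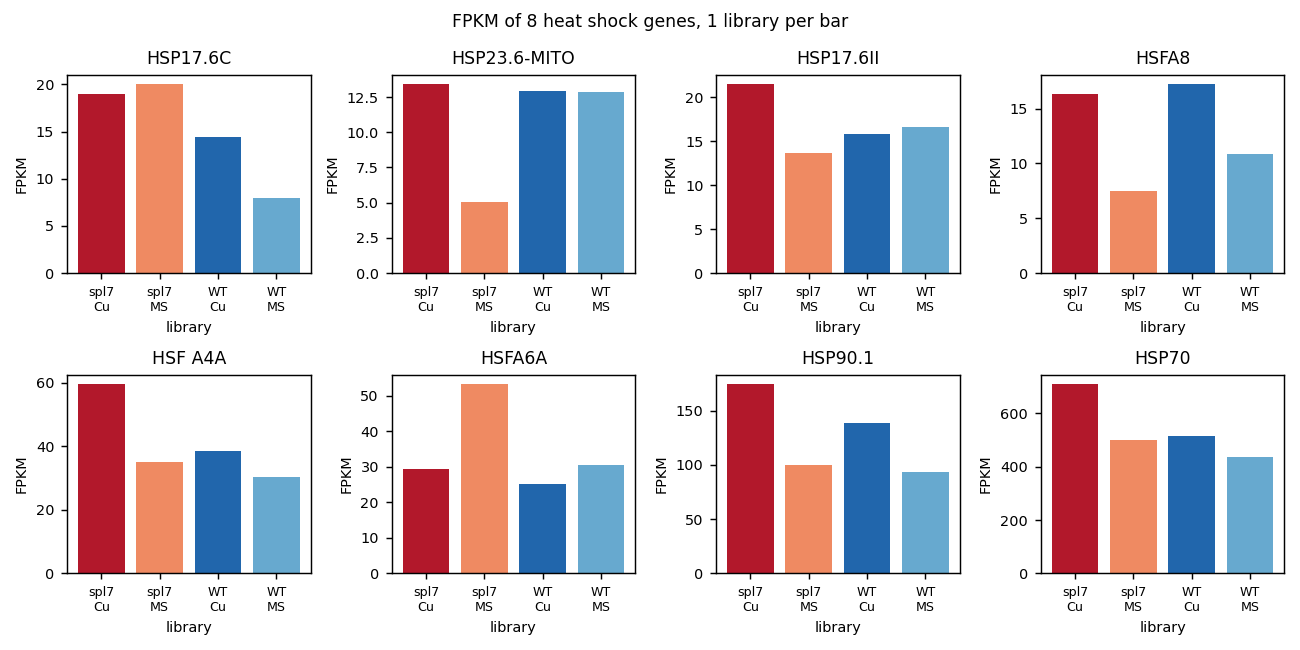
FPKM of 8 genes in the 4 libraries, with bars from 0 and 1 library per bar; the genes were chosen after their values were seen. HSP23.6-MITO and HSFA8 are lowest in spl7 on MS, HSP17.6C is lowest in WT on MS, and HSF A4A, HSP17.6II, HSP90.1 and HSP70 are highest in spl7 with copper.

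In 10 of 12 large HSPs the highest library was less than 1.5 times the lowest. This held for 84.5% of the 18702 entries above 0 in all libraries and reaching 5 FPKM in 1. It held for 2 of the 6 small HSPs above 0 in all libraries. In 2 other small HSPs the highest was at least 2 times the lowest. Mean levels of small HSPs were at most 28.6 FPKM. In each of the 4 comparisons 0 of 12 large HSPs were counted, beside shares of 1.33% to 2.51% of all entries. Neither this nor the 10 of 12 sets the large HSPs apart. HSC70-1 (AT5G02500, chromosome 5, 553745 to 556442) encodes a constitutive HSP70 of the cytosol. It stood at 6203 FPKM in spl7 with copper and 5762 FPKM in spl7 on MS. In WT it stood at 5725 FPKM with copper and 5704 FPKM on MS. It ranked 88 by mean level among all entries and made up between 65.7% and 69.3% of the summed FPKM of the 12 large HSPs taken by name. Chaperone genes under other names are not in that sum, such as cpHsc70-1 at 1036 to 1173 FPKM and CPN60A at 1302 to 1670 FPKM.

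HSP70 and HSP90.1, which heat induces, had higher values with copper than on MS in either genotype, at less than 2-fold. HSP70 (AT3G12580), an HSP70 of the cytosol, stood at 709 FPKM in spl7 with copper, 502 FPKM in spl7 on MS, 516 FPKM in WT with copper and 438 FPKM in WT on MS. HSP90.1 (AT5G52640), an HSP90 of the cytosol, stood at 174 FPKM in spl7 with copper, 100 FPKM in spl7 on MS, 138 FPKM in WT with copper and 93.1 FPKM in WT on MS. For both genes the copper libraries lay above both MS libraries. The log2 ratio of copper to MS was 0.79 in spl7 and 0.57 in WT for HSP90.1, and 0.50 and 0.24 for HSP70. Not all heat shock genes followed: this ratio was -0.29 in spl7 and 0.27 in WT for HSP18.2. For Hsp70b, which the rule leaves out for its letter case, it was -0.14 in spl7 and -0.13 in WT. HSP101, the HSP100 disaggregase of the cytosol that acquired heat tolerance depends on, lay between 59.1 FPKM in spl7 with copper and 51.0 FPKM in WT on MS; it shares its locus with AT1G74300.

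The constitutive HSP90 genes HSP81-2 and HSP81-3 and the 3 mitochondrial chaperonins had their lowest level in spl7 on MS. These were 5 of 12 large HSPs, beside 26.0% of all entries; another 5 of 12 were lowest in WT on MS, beside 22.6%. Hsp81.4, an HSP90 of the cytosol that the rule leaves out for its letter case, was lowest in spl7 with copper, at 51.8 FPKM against 59.9 FPKM in spl7 on MS. HSP81-2 stood at 624 FPKM in spl7 with copper, 482 FPKM in spl7 on MS, 624 FPKM in WT with copper and 618 FPKM in WT on MS. Its neighbour HSP81-3 stood at 634, 521, 602 and 622 FPKM in that order; the pair are near-identical copies, so uniquely mapped reads may be lost from both. HSP60, a chaperonin of the mitochondrial matrix, stood at 238 FPKM in spl7 with copper, 186 FPKM in spl7 on MS, 261 FPKM in WT with copper and 261 FPKM in WT on MS. HSP60-2 and HSP60-3A, its paralogs, stood at 86.7 and 80.4 FPKM in spl7 on MS, against 123 and 101 FPKM in WT on MS. The log2 ratios of spl7 to WT on MS were -0.36 for HSP81-2, -0.26 for HSP81-3, -0.48 for HSP60, -0.50 for HSP60-2 and -0.32 for HSP60-3A, all under the 1.5-fold line.

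Of the 12 large HSPs, 5 had a ratio of spl7 to WT below 0 on both media and 5 above 0 on both, beside 37.1% and 30.6% of all entries. Those below 0 were the 3 chaperonins, HSP93-III (ClpC2 in RefSeq), an HSP100 protein of the chloroplast stroma, and HSP91 (AtHsp70-14), the last 2 at a log2 ratio no lower than -0.29. Those above 0 were HSC70-1, HSP70, HSP90.1, HSP101 and HSP70T-2, a truncated HSP70. HSP70T-2 stood at 30.8 FPKM in spl7 with copper and 33.3 FPKM in spl7 on MS, against 24.5 FPKM in WT with copper and 23.4 FPKM in WT on MS. As a class the 12 large HSPs had a median log2 ratio of -0.24 for spl7 against WT on MS, with 7 below 0, where 50.3% of all entries were; libraries scaled to a common median gave -0.23. With copper the median was 0.03. For copper against MS it was 0.14 in spl7, with 9 of 12 above 0, and 0.00 in WT, with 7 of 12 above 0 as deposited and 5 after scaling, where 43.2% and 49.4% of all entries were above 0 as deposited. Hsp70b, Hsp81.4 and Hsp89.1, large HSPs whose names differ from the rule in letter case and which are not among the 41, ranged from 21.3 to 25.0, 51.8 to 64.1 and 163 to 217 FPKM, and none was counted.

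In WT with copper, against WT on MS, 0 of 35 genes were counted, beside 1.33% of 18742 entries tested. At 1.5-fold HSP17.6C, HSP17.4 and HSFA8 were higher and none was lower, which is 3 of 35 beside 3.68% of all entries. In spl7 with copper, against spl7 on MS, HSP23.6-MITO and HSFA8 were higher and none was lower: 2 of 35, beside 2.51% of 18707 entries tested. At 1.5-fold HSP17.6II, HSP90.1 and HSF A4A were also higher and HSFA6A was lower, which made 6 of 35 (17.1%) beside 6.38% of all entries. In spl7 with copper, against WT with copper, 0 of 35 genes were counted, beside 1.80% of 18805 entries, and at 1.5-fold HSF A4A was higher, 1 of 35 beside 4.68%. The 2-fold shares of 5.71% for spl7 on MS and for copper in spl7 rest on 2 genes each, and nothing particular to heat shock genes is read from them. The 1.5-fold share of 17.1% for copper in spl7 lay above that of all entries but rests on 6 genes and 1 library per group, and was not tested.

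The HSFs were low to moderate in level. In 13 of the 16 that were above 0 in all libraries the highest was less than 1.5 times the lowest, a share near the 84.5% of all entries. The class A1 factors, which start the heat response, were among these 13. HSF1, HSF3, HSFA1D and HSFA1E stood in ranges of 26.5 to 30.5, 42.6 to 46.0, 36.5 to 43.4 and 11.8 to 14.5 FPKM; HSF3 shares its locus with SYP21. HSFA2, which is induced by the A1 factors and prolongs the response, stood at 22.3 FPKM in spl7 with copper, 14.9 FPKM in spl7 on MS, 17.5 FPKM in WT with copper and 15.2 FPKM in WT on MS. Copper-fed spl7 was thus its highest library, with a log2 ratio to spl7 on MS of 0.54.

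HSFA8 (AT1G67970; chromosome 1, 25484699 to 25486462) was the 1 factor counted. It stood at 16.3 FPKM in spl7 with copper, 7.48 FPKM in spl7 on MS, 17.2 FPKM in WT with copper and 10.8 FPKM in WT on MS, so that both copper libraries lay above both MS libraries. Its log2 ratio of copper to MS was 1.03 in spl7, just past the 2-fold line, and 0.62 in WT.

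HSF A4A (AT4G18880), a factor linked to the response to reactive oxygen, stood at 59.5 FPKM in spl7 with copper, 35.1 FPKM in spl7 on MS, 38.4 FPKM in WT with copper and 30.2 FPKM in WT on MS. Copper-fed spl7 again stood apart, at a log2 ratio of 0.75 to spl7 on MS and 0.62 to copper-fed WT. AT-HSFA5, known as a partner that represses HSF A4A, ranged from 48.1 to 56.5 FPKM. HSFA6A, a factor linked to salt, drought and abscisic acid, had lower values with copper than on MS in either genotype, at 29.4 FPKM in spl7 with copper, 53.2 FPKM in spl7 on MS, 25.2 FPKM in WT with copper and 30.5 FPKM in WT on MS. Like HSF A4A, it was higher in spl7 than in WT on both media, with a log2 ratio of 0.22 with copper and 0.78 on MS, against 0.62 and 0.21 for HSF A4A. HSFA7A shared the high library of HSFA6A at a smaller size, at 66.3 FPKM in spl7 on MS and from 49.1 to 56.3 FPKM in the other 3.

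Among the class B factors, HSF4 (the B1 repressor) was the highest HSF and nearly flat, between 158 FPKM in spl7 with copper and 142 FPKM in WT with copper; it shares its locus with the upstream open reading frame CPuORF49. AT-HSFB2B, a repressor, ranged from 64.5 to 69.8 FPKM. HSFB2A, also a repressor, was higher in both spl7 libraries, at 96.7 FPKM with copper and 91.3 FPKM on MS, against 75.8 and 67.2 FPKM in WT with copper and WT on MS, a log2 ratio of 0.35 with copper and 0.44 on MS. HSFB4, which is known to pattern root tissue, was lower in both spl7 libraries, at 36.2 and 35.7 FPKM with copper and on MS, against 41.3 and 42.1 FPKM in WT. Root markers had a median log2 ratio of -0.21 with copper and -0.36 on MS in the same comparisons, with 7 of 9 markers below 0 in each, beside -0.19 and -0.23 for HSFB4; the part of root tissue in that value was not tested. HSFC1 was lower with copper in either genotype, at 66.4 FPKM against 87.9 FPKM in spl7 and 58.6 FPKM against 68.5 FPKM in WT. HSFB3 was listed at 0 except in spl7 with copper, at 3.90 FPKM, and HSFA6B except in WT on MS, at 2.0 FPKM; AT-HSFA7B, like HSFA9, was listed at 0 throughout.

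The 16 HSFs tested had median log2 ratios of 0.06 and -0.00 for spl7 against WT on MS and with copper, and of 0.02 and 0.06 for copper against MS in spl7 and WT. The median for spl7 against WT with copper turned to 0.02 after scaling, and that for copper in spl7 to -0.01 without HSF4, AT-HSFB2B and HSF3, which share a locus.

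The copper ratio of spl7 minus that of WT passed a log2 size of 1 for HSP23.6-MITO alone, at 1.25: 1 of 35, beside 2.53% of 18989 entries tested. The median of this difference was -0.20 in 6 small HSPs, 0.23 in 12 large HSPs and 0.03 in 16 HSFs, beside -0.03 over all entries. Without HSP17.4 the small HSP median was -0.02, and at a minimum of 20 FPKM it was -0.38. The difference was above 0 in 10 of the 12 large HSPs, where 44.4% of all entries were. The largest of these 10 belonged to HSP81-2, HSP60 and HSP81-3, at 0.36, 0.35 and 0.33, and all lay under the 1.5-fold line. HSP81-2, HSP60 and HSP81-3 were lowest in spl7 on MS. That library also enters the ratios of spl7 to WT on MS and of copper to MS in spl7, so these are not separate results.

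Genes that act with heat shock proteins were read from lists chosen with earlier results known. Of 21 tested genes of heat response and co-chaperones, DREB2C was higher with copper in spl7 and 0 were lower, beside 2.51% of all entries counted. Their median log2 ratio was 0.23, and 19 of 21 were above 0, beside 43.2% of all entries. In WT 0 of 22 were counted with copper, beside 1.33%, the median was 0.13 and 15 of 22 were above 0, beside 49.4%. For spl7 against WT on MS 0 of 21 were counted (median -0.14), beside 1.59%, and with copper DREB2C was higher among 22 (median 0.06), beside 1.80%. DREB2C is known to activate HSFA3. It stood at 14.4 FPKM in spl7 with copper, 2.51 FPKM in spl7 on MS, 6.58 FPKM in WT with copper and 3.18 FPKM in WT on MS, whereas HSFA3 stood at 10.3, 10.3, 10.5 and 11.3 FPKM in that order. DREB2C was thus highest in copper-fed spl7, and HSFA3 was nearly level.

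The co-chaperone gene Hop3 (AT4G12400), which links HSP70 and HSP90, and the immunophilin gene ROF2 were chosen after their values were seen. Hop3 stood at 135 FPKM in spl7 with copper, 74.0 FPKM in spl7 on MS, 120 FPKM in WT with copper and 71.6 FPKM in WT on MS. ROF2 stood at 86.6, 50.3, 90.6 and 58.6 FPKM in that order. For both, as for HSP90.1, the copper libraries lay above the MS libraries in either genotype, at less than 2-fold.

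Chaperones of the endoplasmic reticulum did not move by 2-fold: in each comparison 0 of 15 were counted, beside shares of 1.33% to 2.51% of all entries. Their medians were -0.07 and -0.01 for spl7 against WT on MS and with copper, and 0.07 and 0.03 for copper against MS in spl7 and WT. For copper 13 of 15 were above 0 in spl7 and 10 of 15 in WT, beside 43.2% and 49.4% of all entries. A lean above 0 with copper was thus not particular to the heat response list. Organelle chaperones, a list of 9 matched genes that holds HSP60 and HSP60-3A as well, also gave 0 counted. Their median was -0.30 for spl7 against WT on MS, with 9 of 9 below 0, and -0.18 with copper, with 7 of 9 below 0, where 50.3% and 56.0% of all entries were.

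Peaks of FLAG-SPL7 lay within 1 kb of 6 of the 41 genes (14.6%), where 1813 of all 27052 entries (6.70%) had one. They were HSC70-1, HSPRO2, HSFA8, AT-HSFB2B, HSFC1 and HSP17.6A. HSC70-1 carried the highest score, 2580, which ranked 37 of 1535 in the authors' list; that peak covered 2051 bases within the gene (chromosome 5, 553902 to 555952). A second peak with a score of 236 lay over the high-coordinate edge of its interval. Highly expressed genes often carried peaks in this list: 246 of the 270 entries in the highest 1% by mean FPKM (91.1%) had one within 1 kb, and HSC70-1 was one of these 270. HSPRO2, known from defence against bacteria, held the other high scores, 817 and 406, and the peak with the lower of these lay within 1 kb of EIF2 as well. HSPRO2 stood at 557 FPKM in spl7 with copper, 685 FPKM in spl7 on MS, 512 FPKM in WT with copper and 563 FPKM in WT on MS, so that both copper libraries lay below the MS library of their genotype. Its mean of 579 FPKM placed it in the highest 5% of entries, of which 43.3% had a peak.

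**Figure D4:**
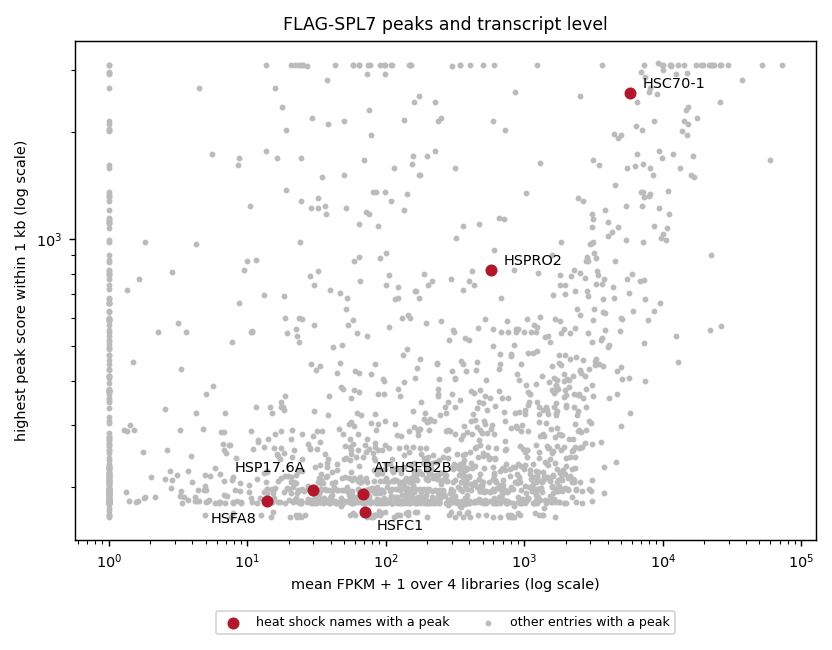
Highest peak score within 1 kb against mean FPKM + 1 over 4 libraries, both on log axes, for all 1813 entries with a peak. The 6 heat shock names are in red: HSC70-1 sits with other highly expressed genes at the upper right, and 4 sit near the low edge of the scores.

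The other 4 peaks had scores between 170 and 197, where the list ran from 165 to 3126 with a median of 224. The peak at HSFA8 (chromosome 1, 25485002 to 25485332) lay within the gene, and also within 1 kb of AT1G67960. That at AT-HSFB2B overlapped the low-coordinate edge of a locus interval shared with AT4G11670. Those at HSFC1 and HSP17.6A lay 4 and 5 bases outside the interval of the gene, and the peak at HSP17.6A lay within 1 kb of AT5G12040 as well. Of the 6 genes, HSFA8 alone was counted in any RNA-seq comparison, and HSP17.6C and HSP23.6-MITO had no peak within 1 kb. No source used here states the meaning of the score or the use of the spl7 control in peak calling.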

How the data were processed

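The authors mapped reads to TAIR10 with TopHat and derived FPKM values with Cufflinks after CASAVA 1.8.2, per the submitters' processing notes, and kept uniquely mapped reads alone, per the series description. Peaks carry names of the MACS caller and a score, as deposited by the authors. Low values showed no steps of whole reads: the commonest log2 ratio to WT on MS held between 3.96% and 6.46% of entries under 5 FPKM, so depth was taken as unknown. Of 27052 entries 26370 were matched to locus codes by name, symbol or unique synonym through a RefSeq table (TAIR10.1); cpHsc70-2 of the lists was not matched. Loci in the files count their start from 0, so 1 was added. No sequence was used here. A strand-specific kit is not named, so a gene and an overlapping antisense gene cannot be told apart.

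Ratios were computed with Python 3.11.15, pandas 2.3.3 and numpy 2.4.6 as log2 of FPKM + 1 and counted at 5 FPKM and 2-fold, and the counting was tested on simulated data. Members, lists and rules were chosen with earlier results of these data known. All 41 genes could be named. Of the lists, the counted genes could be named. Hop3, ROF2, cpHsc70-1 and CPN60A were named as well, although none was counted. The 3 names that differ from the rule in letter case (Hsp70b, Hsp81.4 and Hsp89.1) were used as an alternative, as were other pseudocounts, minimum levels, folds, scaling and flanks.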

Additional observations from a re-analysis of the deposited data

Results flagged for a closer look

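In 3 small HSPs a contrast had opposite signs in its 2 settings and the copper ratio of spl7 minus that of WT was at least 1.5-fold. The difference was not tested, since each group has 1 library. The rule was applied to heat shock genes alone, so the count has no share of all entries beside it. In HSP23.6-MITO and HSP17.6C 1 of the 2 ratios lay near 0, so their opposite signs carry little weight. HSP23.6-MITO had a difference of 1.25, with a log2 ratio of spl7 to WT of 0.05 with copper and -1.20 on MS. AT1G53540 (HSP17.6C) had a difference of -0.86, with a log2 ratio of copper to MS of -0.08 in spl7 and 0.78 in WT. HSP17.6II had a difference of 0.69, with a log2 ratio of copper to MS of 0.62 in spl7 and -0.07 in WT. Its log2 ratio of spl7 to WT also had opposite signs, at 0.42 with copper and -0.27 on MS. Neither of these lay near 0, though both were under the 1.5-fold line.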

How the results depend on the processing

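A pseudocount of 5 FPKM gave 0 genes in each comparison, and so did a 4-fold line. A minimum of 20 FPKM left 1 gene for spl7 against WT on MS, HSP17.6C, and 0 for copper in spl7 and for the difference of copper ratios. With a minimum of 1 FPKM or none, HSFB3 and HSFA6B entered, each above 0 in a single library: counts were 1 for spl7 against WT with copper, 1 for copper in WT and 3 for the difference of copper ratios. At 1.5-fold the counts were 1 for spl7 against WT with copper, 6 for copper in spl7, 3 for copper in WT and 3 for the difference of copper ratios. No share of all entries is given for the difference at 1.5-fold or for the other minimum levels, so nothing about heat shock genes is read from those counts. Of 58 recomputed counts 39 stayed within 1.5 times the reported value and 19 did not. Counts were the same after scaling, with a pseudocount of 0.1 FPKM, with the 3 names that differ in letter case, without the 5 genes that share a locus and without genes listed at 0. Leaving out those genes could not change the counts, since no counted gene shares its locus and every tested gene was above 0 in all libraries. For the ratio of a single gene, only the pseudocounts and the scaling could change the value. Over the 11 alternatives the log2 ratio of HSP17.6C on MS ranged from 0.94 to 1.31, that of HSP23.6-MITO on MS from -1.33 to -0.83, its copper ratio in spl7 from 0.87 to 1.39, and that of HSFA8 from 0.77 to 1.11. Over the same alternatives the small HSP median, of few genes, ranged from 0.06 to 0.37 for spl7 against WT on MS, 0.02 to 0.09 with copper, 0.10 to 0.29 for copper in spl7, 0.11 to 0.48 for copper in WT and -0.38 to -0.01 for the difference of copper ratios; the outer values came with no minimum level, which adds genes listed at 0, or with a minimum of 20 FPKM, except 0.29, from a pseudocount of 0.1 FPKM. Without HSP17.4, which shares its locus, they were 0.11, 0.09, 0.19, 0.22 and -0.02. HSF medians moved by at most 0.08 and large HSP medians by at most 0.03. Without genes that share a locus, the HSF median for copper in spl7 was -0.01, against 0.02 with them, and that of the difference -0.05, against 0.03. The 3 kb flank gave 7 genes with a peak, HSP17.6II added, and the other peak settings gave 6. No paired analysis was possible because each group has 1 library. The counted genes stand between 5.05 and 20.0 FPKM with unknown read numbers, which limits how firmly any of these calls can be held.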
